A study of Arabidopsis thaliana with 4 samples.

Results

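SAUR (small auxin up RNA) genes were taken as the nuclear protein-coding genes of Arabidopsis thaliana that carry SAUR and a number as symbol or synonym in the RefSeq gene table of TAIR10.1. The rule gave 80 genes of 27444. Of these, 16 carry the name as symbol and 64 as synonym. Binding of SMXL6 was mapped by chromatin immunoprecipitation and sequencing (ChIP-seq) in whole seedlings aged 2 weeks, with a polyclonal antibody against the HA tag. There were 2 libraries from smxl6/7/8 triple mutants that carry pSMXL6:SMXL6-HA, which is SMXL6 with an HA tag under its own promoter, and 2 from the smxl6/7/8 mutant without the transgene, the control for background. All 4 libraries thus lack the endogenous SMXL6, SMXL7 and SMXL8 functions, and the labels give no hormone treatment and do not say how many transgenic lines were used.

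SAUR proteins are small proteins whose genes are among the fastest to respond to auxin. Several of them bind and inhibit type 2C phosphatases of clade D, which otherwise keep proton pumps of the plasma membrane inactive. With the phosphatases held back, the pumps acidify the cell wall, expansins loosen it, and the cell expands. SMXL6 is a repressor in strigolactone signalling that acts with TOPLESS corepressors and is degraded when the hormone is perceived. Many SAUR genes are short, lack introns and lie in tandem arrays, so 1 peak can lie at the ends of several of them.

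The authors called peaks separately in each replicate pair. List 1 sets SMXL6-HA replicate 1 against control replicate 1, and list 2 sets SMXL6-HA replicate 2 against control replicate 2. List 1 holds 1789 peaks with a median width of 2824 bp, and list 2 holds 1442 with a median width of 1236 bp. The score of a peak is the authors' own value, which ranks peaks within a list, and all scores but 1 lay above 50. The tagged gene itself, SMXL6, held rank 1 in both lists. The SMXL6-HA plants carry this gene as a transgene and the control plants do not. Reads from the transgene and binding therefore cannot be told apart at this gene. Nothing in the labels ties a replicate to its own batch of plants, so the overlap of the lists may measure technical spread. Read depth is unknown, no interval can be given, and SMXL6 may sit below the limit of detection at genes without a peak.

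SMXL6 peaks lay at 9 of the 80 SAUR genes in both lists. They were SAUR78 and SAUR51 on chromosome 1, SAUR7, SAUR6 and SAUR12 on chromosome 2, and SAUR49, SAUR50, SAUR14 and SAUR15 on chromosome 4. A gene counted when a peak reached the stretch from 1000 bp outside to 200 bp inside either of its ends. By this rule 11.2% of SAUR genes had a peak in both lists, and 5.04% of all nuclear protein-coding genes did. Counted without regard to the other list, and so with these 9 included, 13 SAUR genes (16.2%) had a peak in list 1, beside 11.3% of all genes. In list 2 10 SAUR genes (12.5%) had one, beside 6.68% of all genes. The count of 9 depended on how peaks were assigned. It was 5 when each peak was given to the nearest gene end alone, without SAUR7, SAUR12, SAUR14 and SAUR15. It was also 5 when the midpoint of the peak had to lie in the window, without SAUR78, SAUR51, SAUR7 and SAUR12. SAUR6, SAUR49 and SAUR50 were counted under both. The share of all genes was not counted under these rules, so neither count of 5 can be set against 5.04%. A further 66 SAUR genes had no peak in either list, and 5 had one in 1 list.

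The 9 genes are not 9 separate observations, because neighbours shared peaks. They lay at 6 peaks of list 1 and 8 peaks of list 2. When SAUR genes at most 10000 bp apart are joined, the family forms 9 tandem arrays with 37 genes and 43 genes that stand alone, 52 loci in all. Genes with a peak in both lists lay in 4 of the arrays and at 1 lone gene, which is 5 of 52 loci (9.62%). All coding genes were not joined into loci in this way, so 9.62% cannot be set against the 5.04% counted by gene. The members were chosen with earlier results of these data known, so no enrichment test was made and these shares are a description.

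**Figure D1:**
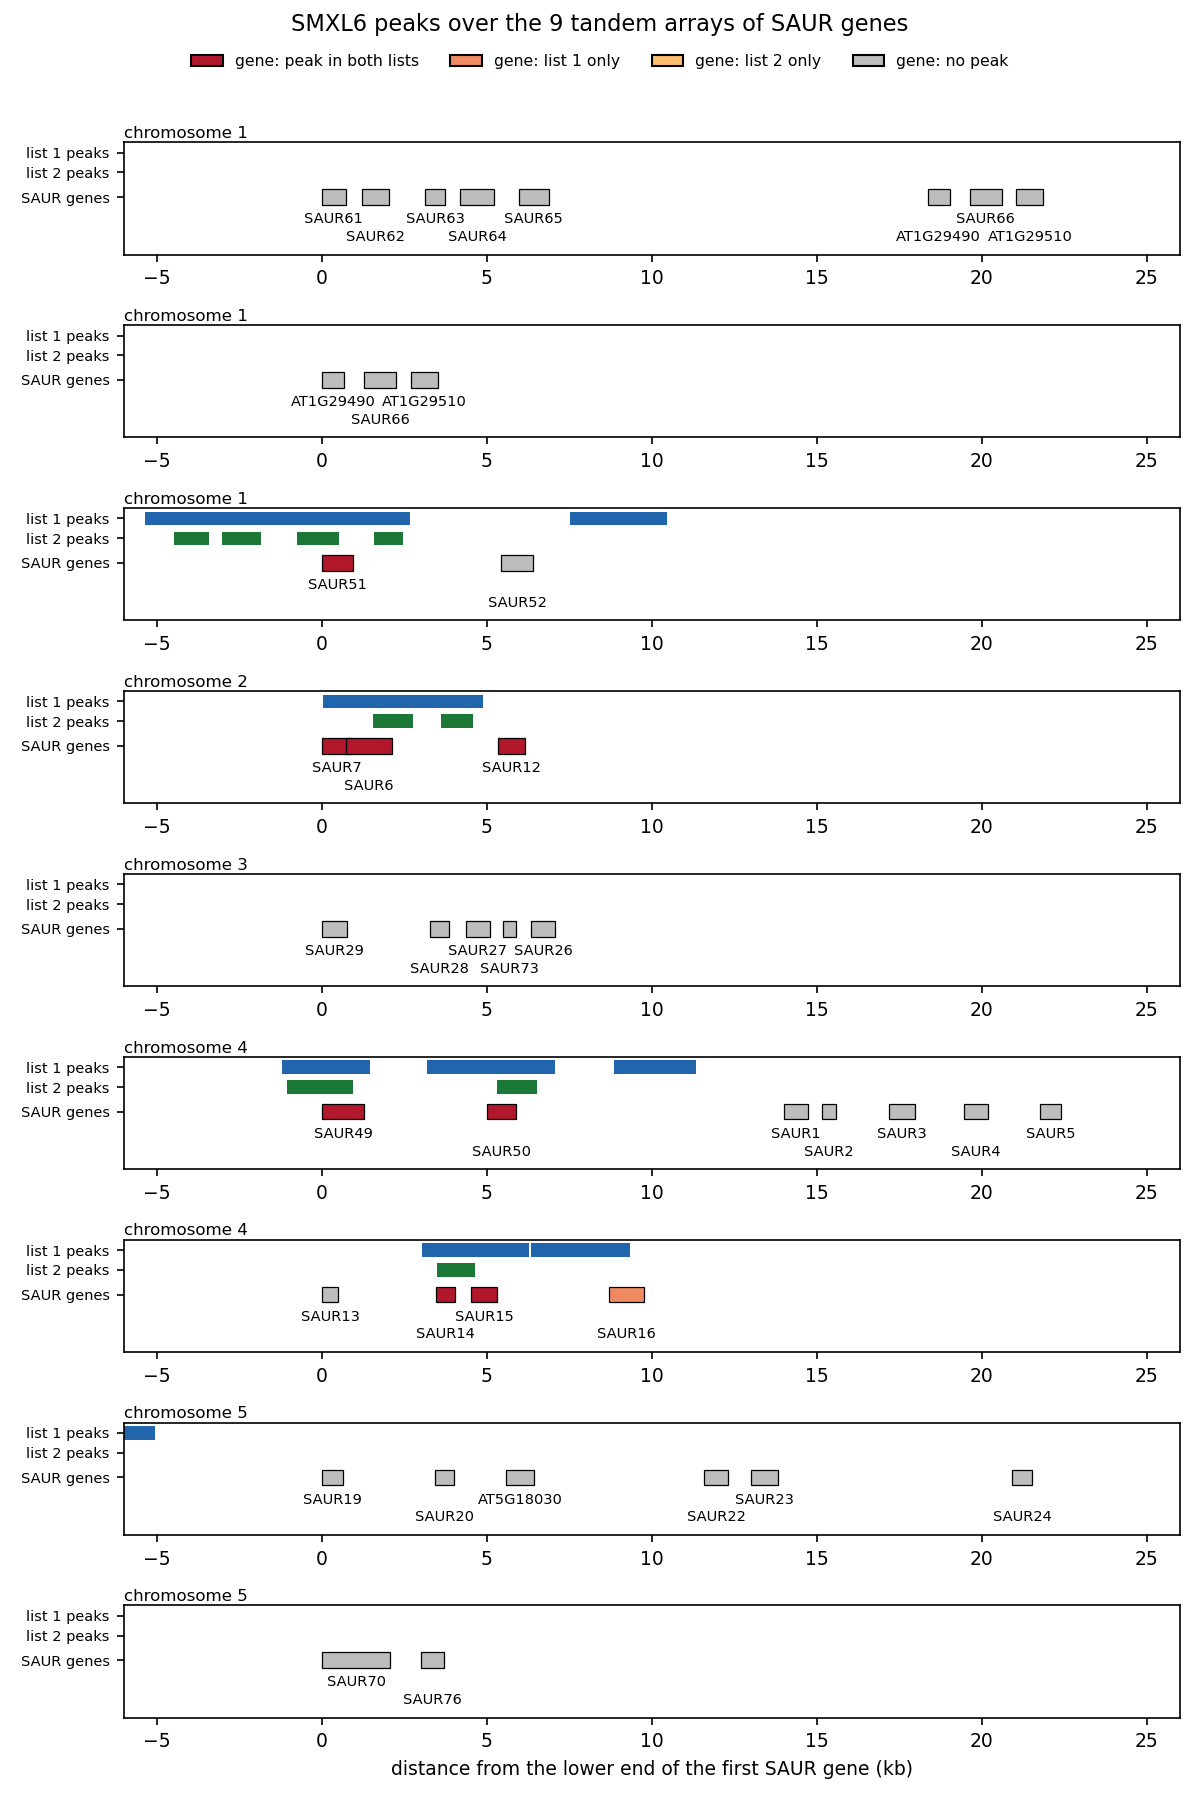
Genes and SMXL6 peaks at the 9 SAUR arrays, drawn to scale by distance in kb from the lower end of the first gene of each array; blue bars are list 1 peaks, green bars list 2 peaks, and gene colour gives the lists with a peak at that gene. In the 4 arrays with coloured genes the green bars at the genes lie inside the blue ones, the other 5 arrays hold no peak at their genes, and the first panel also reaches the array shown in the second.

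The array on chromosome 4 from SAUR49 to SAUR5 spans 16577180 to 16599568 on TAIR10 and holds 7 SAUR genes with no other coding gene between them. SAUR49 encodes a promoter of leaf senescence. Its list 1 peak ran from 16575953 to 16578637 with a score of 145.09, rank 470, and covered 100% of the gene. Its list 2 peak ran from 16576113 to 16578106 with a score of 142.87, rank 418, and covered 72.8% of it. These were the highest scores at any SAUR gene in either list. Both peaks also reached the window of the gene below, ASE2, which encodes an enzyme of purine synthesis, but SAUR49 had the nearest gene end to both midpoints, 115 bp and 71 bp away.

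SAUR50, the neighbour of SAUR49, is induced by light in cotyledons and promotes their opening. It had a peak from 16580373 to 16584243 in list 1, with a score of 98.96, and from 16582491 to 16583703 in list 2, with a score of 88.93. No other coding gene lay at either of these peaks. The 5 remaining genes of the array, SAUR1 to SAUR5, had no peak in their windows. Between SAUR50 and SAUR1 there is a gap of 8103 bp, and list 1 had a peak inside it, at 16586022 to 16588523, with a score of 191.42 and rank 305. It lay 2947 bp from SAUR50 and 2656 bp from SAUR1, too far to count for either, and list 2 had no peak there. In this array SAUR49 and SAUR50 thus had peaks in both lists, and SAUR1 to SAUR5 had none in their windows. Over all genes the share with a peak in both lists was 5.04%, so finding none among 5 genes is close to the background.

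In the array of SAUR7, SAUR6 and SAUR12 on chromosome 2, at 9083906 to 9090052, each of the 3 genes had a peak in both lists. SAUR7 and SAUR6 overlap by 176 bp. A single list 1 peak, from 9083949 to 9088800 with a score of 59.16, reached the windows of all 3 SAUR genes and of AT2G21190 and AT2G21195. List 2 divided the same stretch into a peak at SAUR6 and SAUR7, from 9085442 to 9086669 with a score of 129.83, and a second below SAUR12, from 9087504 to 9088473 with a score of 54.41. The midpoint of the first of these lay 26 bp from the upper end of SAUR6. SAUR7 and SAUR12 were reached through the window alone in list 2, 639 bp and 753 bp from the peak edge. The list 1 score ranked 1493 of 1789, near the bottom of that list, while the list 2 score at SAUR6 ranked 462 of 1442.

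The second array on chromosome 4 holds SAUR13, SAUR14, SAUR15 and SAUR16, at 18121526 to 18131284. SAUR15, also known as SAUR-AC1, is a standard marker of the auxin response. SAUR14 and SAUR15 shared 1 peak in each list. It ran from 18124542 to 18127798 with a score of 58.81 in list 1, and from 18125022 to 18126168 with a score of 112.06 in list 2. The list 2 peak covered 92.4% of SAUR14 and 14.5% of SAUR15, and its midpoint lay 36 bp from the upper end of SAUR14. CRK26, a receptor-like kinase gene on the lower side, was within reach of both peaks. SAUR16, which like SAUR50 promotes cotyledon opening, had a separate list 1 peak with a score of 59.24 and none in list 2, where the nearest peak was 4069 bp away. SAUR13 had no peak in its windows, with the nearest at 2532 bp in list 1 and 3012 bp in list 2.

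SAUR51 and SAUR52 form an array on chromosome 1, at 28377377 to 28383769, and differed from each other. SAUR51 lay under a list 1 peak of 8029 bp, from 28372026 to 28380054, with a score of 75.32. List 2 had 4 peaks inside that stretch, 2 of them in the windows of SAUR51. The one over its lower end, from 28376631 to 28377897, had a score of 124.3, and the one above the gene a score of 54.19. SAUR52 had no peak in its windows. The nearest list 1 peak, with a score of 64.05, missed the limit at 1136 bp, and the nearest list 2 peak was 2973 bp away.

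SAUR78 on chromosome 1, at 27264602 to 27265806, was the 1 lone gene with a peak in both lists. SAUR78 interacts with ethylene receptors, as do the related SAUR76 and SAUR77. Its list 1 peak ran from 27263309 to 27266043 with a score of 130.7, rank 540, and covered 100% of the gene. Its list 2 peak ran from 27264976 to 27265975 with a score of 74.31, rank 925, and covered 69.0%. Among the 4 genes SAUR76 to SAUR79 it was the one with a peak. Of all genes 5.04% had a peak in both lists, and 4 genes are too few to compare with that share. SAUR77 had its nearest peaks 2844 bp and 4358 bp away, and SAUR76 and SAUR79 had none within 10000 bp.

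**Figure D2:**
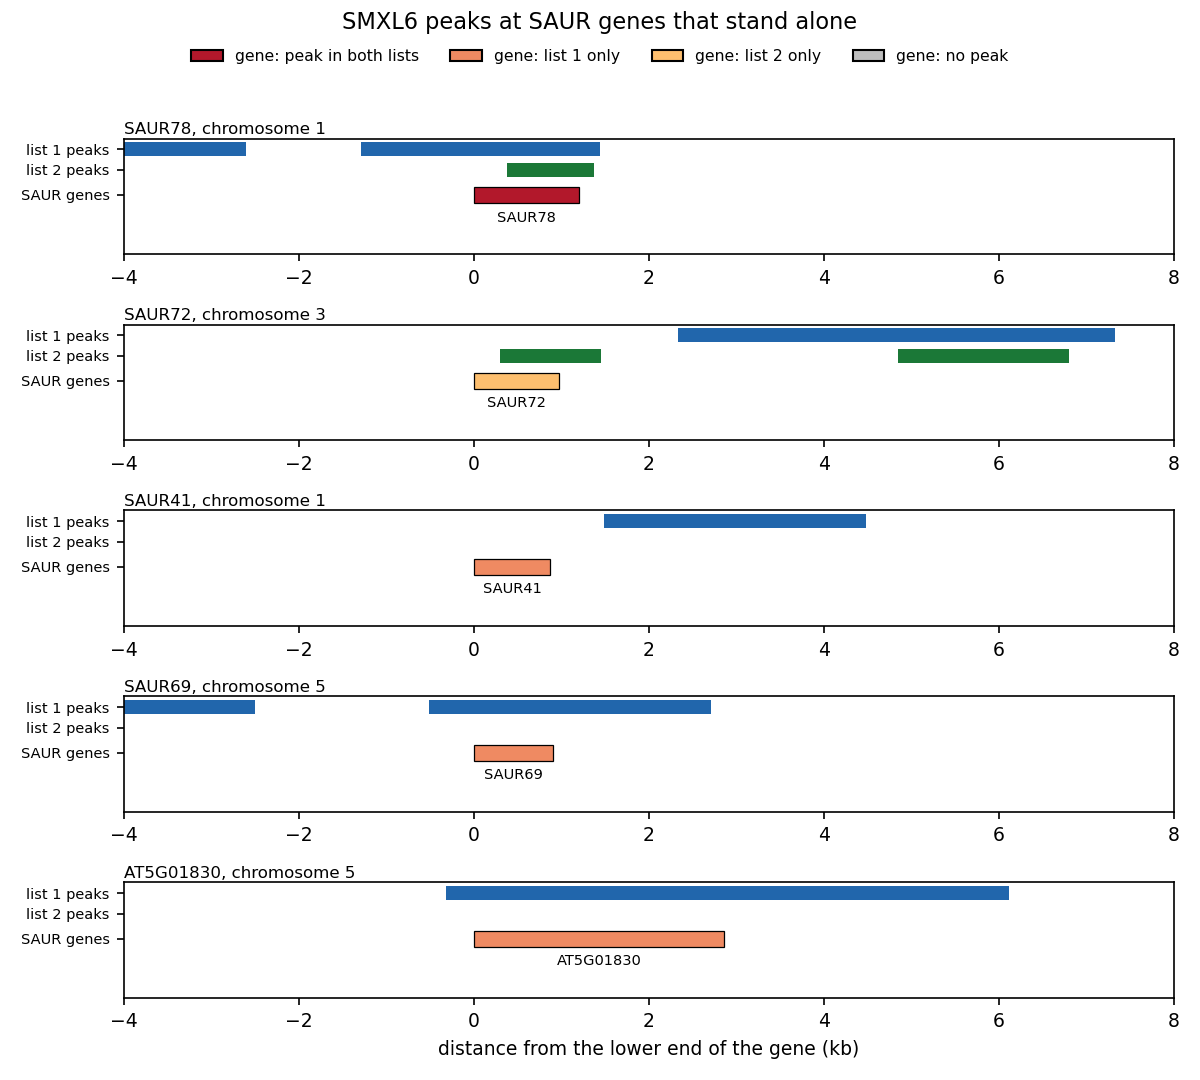
SMXL6 peaks around the 5 SAUR genes outside arrays that had a peak in at least 1 list, by distance in kb from the lower end of the gene; blue bars are list 1 peaks, green bars list 2 peaks, and gene colour gives the call. SAUR78 lies under a peak of each list, while the other 4 genes have a peak of 1 list within the window.

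The 5 genes with a peak in 1 list had scores from 57.6 to 96.85. SAUR41, whose protein promotes cell expansion, had a list 1 peak of score 64.16 that began 621 bp above the gene and whose midpoint lay inside AT1G16515. Its nearest list 2 peak was 200183 bp away. SAUR72, a relative of SAUR41, showed the reverse. It had a list 2 peak of score 57.6, rank 1224, over its upper end, and its nearest list 1 peak, of score 68.33, lay 1354 bp away. The other relatives of SAUR41, SAUR40 and SAUR71, had no peak in their windows, so 0 of these 4 genes had one in both lists. Among 4 genes this is close to the background, since 5.04% of all genes had one. The peaks nearest to SAUR40 had high scores, 418.78 in list 1 and 664.16 in list 2, but lay 3558 bp and 3717 bp away.

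SAUR69 lay under a list 1 peak of score 96.85, and its nearest list 2 peak was 27113 bp away. SAUR16 is described above. AT5G01830 lay under a list 1 peak of 6438 bp with a score of 95.08 that also covered the ends of OFP1. AT5G01830 has the symbol SAUR21 in the table, but AT5G18030, 5645138 bp away and inside the array of SAUR19 to SAUR24, has the same name as a synonym. With 2865 bp AT5G01830 is also the longest of the 80 genes, whose median length is 815 bp. Leaving it out left 9 genes with a peak in both lists and 12 in list 1.

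The 5 arrays without a peak hold 21 genes, among them those best known for driving elongation. SAUR19 to SAUR24, which promote hypocotyl and leaf growth, lie at 5962773 to 5984308 on chromosome 5. Their nearest list 1 peak was 5061 bp and their nearest list 2 peak 59476 bp away. The 9 genes of the SAUR63 subfamily, SAUR61 to SAUR68 and SAUR75, likewise act in elongation and had no peak within 10402 bp in list 1 or 30092 bp in list 2. Among 6 or 9 genes a count of 0 is close to the background, since 5.04% of all genes had a peak in both lists. These absences therefore do not set the elongation genes apart. The array of SAUR29 to SAUR26 on chromosome 3 was 61353 bp and 61512 bp from a peak, and that of SAUR70 and SAUR76 was 16267 bp and 16715 bp from one. SAUR genes of 1 array resemble each other in sequence, and how reads that fit several copies were treated is not given in the sources used here, so the absence of peaks over these arrays is uncertain.

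By chromosome, both lists had peaks at 2 of 20 SAUR genes on chromosome 1, 3 of 12 on chromosome 2, 0 of 14 on chromosome 3, 4 of 18 on chromosome 4 and 0 of 16 on chromosome 5. Among all nuclear protein-coding genes the share was between 4.60% (chromosome 3) and 5.31% (chromosome 5), so a count of 0 among 14 or 16 genes is close to the background. Among array genes 8 of 37 (21.6%) had a peak in both lists, and among lone genes 1 of 43 (2.33%), beside 5.04% of all genes. Array genes at the same peak are counted each time, so this contrast was not tested.

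**Figure D3:**
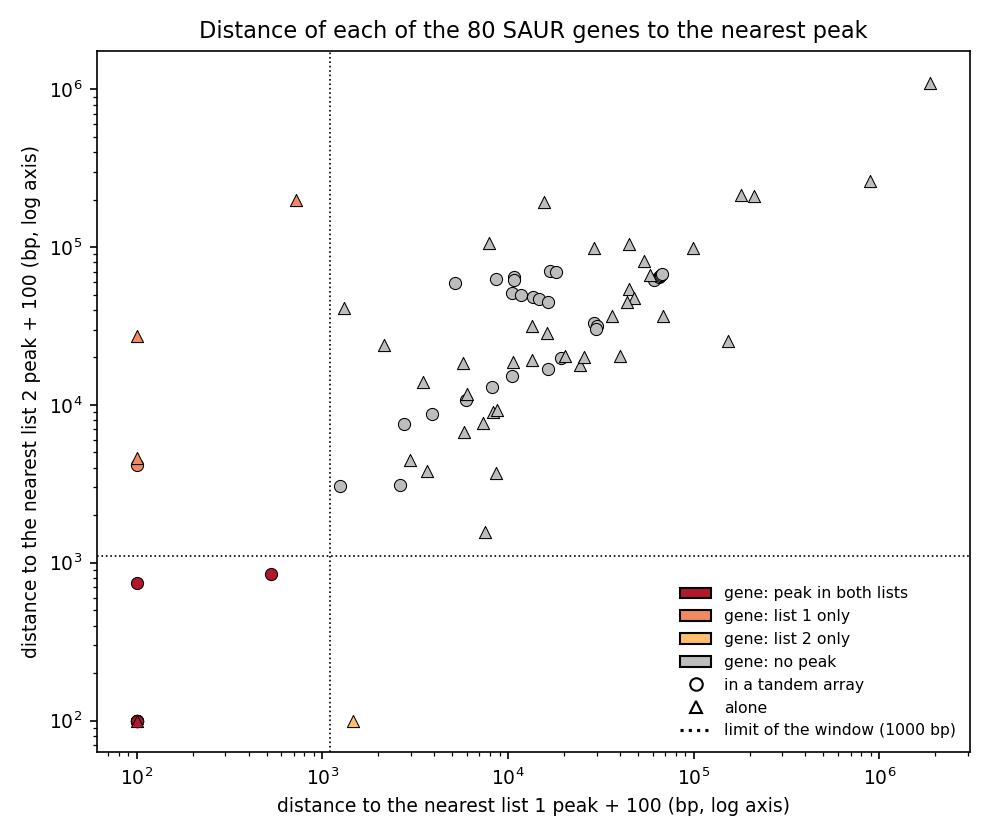
Distance in bp (log axes, with 100 added) from each of the 80 SAUR genes to the nearest list 1 peak (horizontal) and list 2 peak (vertical); circles are array genes, triangles lone genes, colours the call, and dotted lines the limit of 1000 bp. The 9 genes with a peak in both lists sit at the lower left. Most others lie far beyond the lines in both lists, 44 of them over 10000 bp away in each. Distances over 10000 bp were less frequent among SAUR genes than among all nuclear protein-coding genes in each list.

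Few SAUR genes lay near the limit of the window. Within 2000 bp but outside the window, list 1 had peaks at SAUR52, SAUR57 and SAUR72, at 1136 bp, 1203 bp and 1354 bp, with scores from 64.05 to 68.33. List 2 had 1 such case, SAUR56, a gene with a peak of score 88.38 at 1472 bp. Just inside the limit were SAUR12 at 753 bp and SAUR7 at 639 bp in list 2, and SAUR41 at 621 bp and SAUR12 at 426 bp in list 1. From a SAUR gene to the nearest list 1 peak the median distance was 10648 bp, beside 21199 bp for all nuclear protein-coding genes. To the nearest list 2 peak it was 26295 bp, beside 28961.5 bp.

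Scores at SAUR genes lay well below the top of each list. The 10 list 1 peaks had a median score of 85.2, beside 92.0 for the whole list, and ran from 58.81 to 145.09. The 9 list 2 peaks had a median of 88.9, beside 89.2, and ran from 54.19 to 142.87. The best rank of a peak at a SAUR gene was 470 of 1789 in list 1 and 418 of 1442 in list 2. With only scores of at least 100 in both lists, SAUR49 alone remained, 1.25% of SAUR genes beside 2.16% of all genes. The order of the genes also differed between the lists. SAUR49 led in both, but SAUR78 came second in list 1 and stood below SAUR6, SAUR51, SAUR14 and SAUR50 in list 2, while SAUR14 and SAUR15 had the lowest score of list 1 peaks at SAUR genes and a list 2 score of 112.06.

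**Figure D4:**
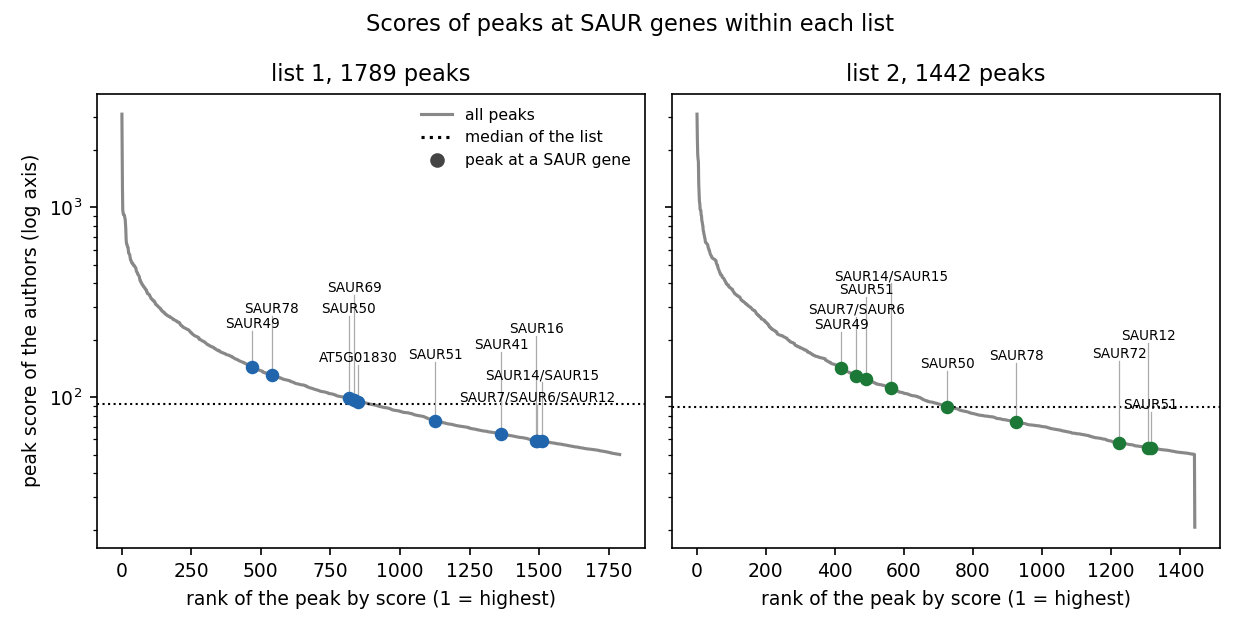
Peak score (log axis) against rank within list 1 (left) and list 2 (right); the grey line is all peaks, the dotted line the median of the list, and points are peaks at SAUR genes labelled with the genes they reach. The points run from rank 470 to 1511 in list 1 and from rank 418 to 1315 in list 2.

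Peaks of both lists overlapped in 8 pairs at SAUR genes, and in 8 of 8 the narrower list 2 peak fell within the bounds of its partner. The same share over all overlapping pairs was not counted. List 1 peaks are the wider as a whole (median 2824 bp against 1236 bp), so this is no measure of close agreement. The list 1 peak was between 1.35 times (SAUR49) and 9.16 times (SAUR51) as wide. At the upper SAUR51 peak the midpoints were 3362 bp apart. A partner in list 2 was found for 6 of the 10 list 1 peaks (60.0%), beside 54.9% for list 1 as a whole. A partner in list 1 was found for 8 of the 9 list 2 peaks (88.9%), beside 74.7% for list 2 as a whole. These 8 peaks had only 6 list 1 partners. The wide list 1 peaks at SAUR51 (8029 bp) and at SAUR7, SAUR6 and SAUR12 (4852 bp) each overlapped 2 of them.

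Most peaks at SAUR genes were centred near an end of a coding gene, and 4 were not. A SAUR gene had the nearest coding gene end to 9 of 10 list 1 midpoints, all but the one near SAUR41, and to 9 of 9 list 2 midpoints. The list 1 midpoint near SAUR41 lay 2118 bp from that gene and 99 bp from an end of AT1G16515. The median distance from midpoint to nearest gene end was 97.0 bp in list 2, beside 406.5 bp for all its peaks, and 120.0 bp in list 1, beside 538.0 bp. The midpoints far from an end were those of the list 1 peaks at SAUR51 (1337 bp) and SAUR16 (888 bp) and of the list 2 peaks above SAUR51 (1092 bp) and below SAUR12 (1238 bp). The rule itself asks for nearness to a gene end, so these distances describe the choice as well as the peaks. The midpoint lay inside a coding gene for 5 of 10 list 1 peaks, in SAUR78, SAUR49, SAUR50, SAUR15 and AT1G16515, and for 2 of 9 list 2 peaks, in SAUR78 and SAUR72. Another coding gene lay within reach of 8 of the 10 list 1 peaks and 2 of the 9 list 2 peaks. The shares of all peaks for these counts, and for midpoints inside a gene, were not computed. The median number of coding genes within reach of a peak was 2.0 in list 1 and 1.0 in list 2. These medians were the same for peaks at SAUR genes and for all peaks. Strand was not used here, so promoter and 3′ end were not told apart.

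At the median, SAUR genes had more free space around them than all nuclear protein-coding genes, whatever the call. The summed gap to the coding neighbours on both sides had a median of 3904 bp for the 9 genes with a peak in both lists and 2877.5 bp for the 66 with none, beside 1833.5 bp for all genes. SAUR genes outside arrays had a median of 5027 bp and array genes one of 2529 bp. SAUR51, for example, has 4075 bp free below it and 4502 bp above it. Neighbours in an array share a gap, so the medians are a description, and the part of gap length in the calls was not tested.

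The genes upstream and downstream of SAUR action were counted in the same way, beside the same 5.04% of all genes. Among 16 regulators of SAUR transcription 6 (37.5%) had a peak in both lists. They were led by TIR1, an auxin receptor (scores 768.38 and 503.6), followed by the light and temperature factors PIF7 (428.03 and 136.53), PIF5, listed as PIL6 (172.59 and 228.79), and PIF4 (120.05 and 119.33). Among 32 genes with an IAA number, which by synonym include the auxin response factor genes ARF19, MP and NPH4, 5 (15.6%) had one. ARF19 and NPH4 are also among the 16 regulators, so these lists overlap. By mean rank they were led by the repressor genes IAA9 (534.77 and 812.97), IAA26, listed as PAP1 at AT3G16500 (295.58 and 154.17), IAA16 (130.2 and 288.16) and IAA2 (124.0 and 180.75). Among 9 GH3 genes, which encode enzymes that conjugate auxin and related acids, the 1 was GH3.6, listed as DFL1 (62.11 and 100.67).

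Of the 9 clade D phosphatase genes, whose products SAUR proteins inhibit, 0 had a peak in both lists, which among 9 genes is close to the 5.04% of all genes. In list 1 3 of them had one (33.3%, beside 11.3% of all genes), and in list 2 0 had one, beside 6.68%. Of the 11 proton pump genes 1 had a peak in both, AHA11, listed as HA11 (93.08 and 128.35). Of 23 alpha-expansin genes 2 (8.70%) had one, EXPA6 (351.38 and 570.67) and EXPA5 (167.11 and 88.27). TIR1, IAA9 and EXPA6 thus stood at ranks 15, 31 and 94 of list 1, above SAUR49 at rank 470. These lists are small and were chosen with results known, so their shares were not tested against each other or against the SAUR genes.

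**Figure D5:**
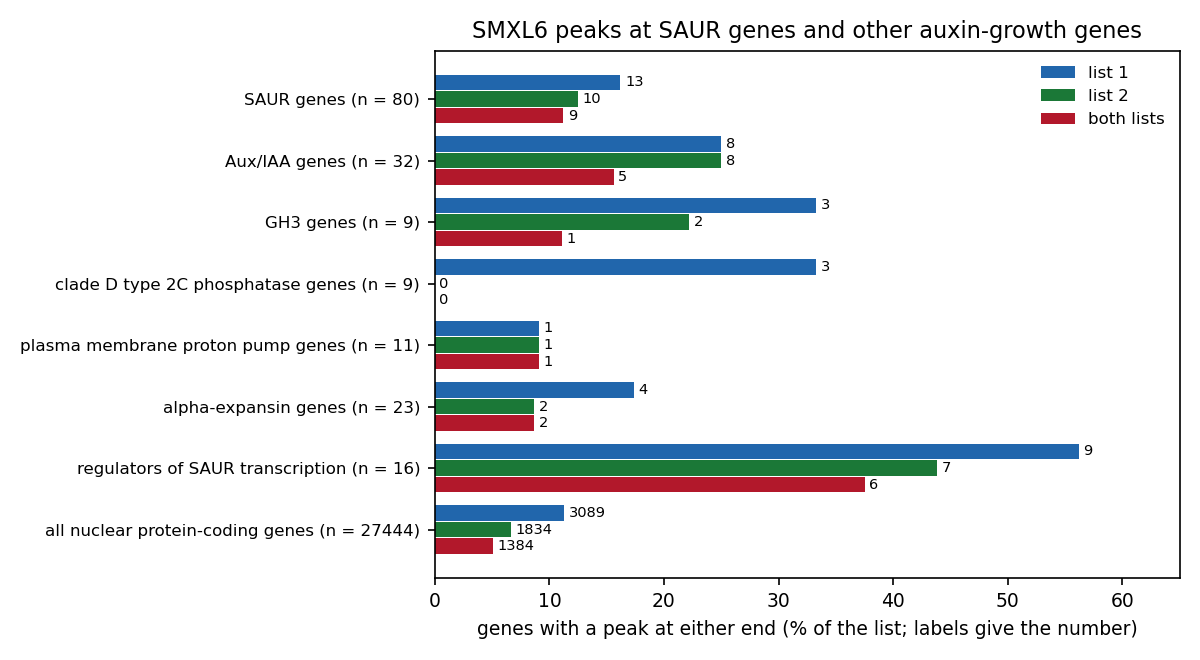
Share of genes with an SMXL6 peak at either end in list 1, list 2 and both lists (horizontal axis, % of the list), with the number of genes beside each bar, for SAUR genes, 6 lists of other auxin-growth genes and all nuclear protein-coding genes. SAUR genes reach 11.2% in both lists, regulators of SAUR transcription 37.5% and all genes 5.04%. ARF19 and NPH4 belong to both the regulators and the genes with an IAA number.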

How the data were processed

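Reads were mapped and peaks called before deposit; the submitters' processing notes name BWA (0.7.10-r789), SAMtools, MACS (1.4.2) and TAIR10, and the sources used here give no parameters, depth or handling of duplicate reads. The deposited peak lists give a chromosome, start, end, name and score per peak, and the score is the authors' value from their peak caller, taken here as a rank within a list. The scale of the score was not established here. In list 2 1 score lay under 50, and in list 1 0 did. Starts were raised by 1 bp to count from 1.

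Gene ends came from the RefSeq table of TAIR10.1, whose nuclear chromosomes match TAIR10; it gives no strand or sequence, so the planned counts by gene end and of promoter motifs were not run. Peaks were assigned with Python 3.11.15 and pandas 2.3.3, with functions tested on simulated data. Alternatives were windows of 500 bp and 2000 bp, nearest gene end, peak midpoints, scores of at least 100, trimmed list 1 peaks, reciprocal overlap of 50%, other member rules and other array gaps. Members and lists were chosen with earlier results of these data known. Named genes were all SAUR genes with a peak in 1 or both lists, those with a peak within 2000 bp, all arrays, and up to 4 genes of each other list by mean rank; SAUR40, SAUR71, SAUR75, SAUR77 and SAUR79 fall outside this rule and are named as members of the subgroups that were counted, and the distances given for them were chosen after their values were seen.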

Additional observations from a re-analysis of the deposited data

How the results depend on the processing

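Of 87 recomputed counts 62 stayed within 1.5 times the reported count. SAUR genes with a peak in both lists numbered 7 with windows of 500 bp, which lose SAUR7 and SAUR12 (8.75%, beside 4.2% of all genes), and 10 with 2000 bp, which add SAUR72 (12.5%, beside 6.88%). They fell to 5 with each peak given to the nearest gene end and to 5 with midpoints required in the window. With scores of at least 100 there were 1 in both lists (1.25%, beside 2.16% of all genes), 2 in list 1 and 6 in list 2, with 1 shared peak and 1 array. Overlap of 50% of each peak left 1 gene and 1 shared peak, SAUR49, and list 1 peaks are the wider. For nearest gene ends, midpoints, overlap of 50% and scores of at least 100 in a single list, the share of all genes was not counted. Counting symbols without synonyms left 16 genes, by construction fewer, with 1 in both lists, 2 in list 1, 1 in list 2, 1 shared peak and 0 arrays. Leaving out a replicate, which leaves 1 list, gave 10 to 13 genes, 9 to 10 peaks and 4 arrays. In the other lists it gave 8 IAA genes in each case, 2 to 3 GH3 genes, 0 to 3 phosphatase genes, 1 pump gene, 2 to 4 expansin genes and 7 to 9 regulators. Counts in a single list are higher for all genes too, at 11.3% in list 1 and 6.68% in list 2, beside 5.04% in both. Scores of at least 100 left 0 GH3, 0 pump and 1 expansin gene, and windows of 500 bp left 0 GH3 genes. The alternative without AT5G01830 was chosen after seeing the data. Beyond what is said here, the causes were not tested. No paired analysis was possible because each list is already 1 replicate pair and no test was made. Depth, which is unknown, limits what an absent peak means.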
